A study of Mus musculus with 8 samples.

Results

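Kainate receptors were followed here through the 5 genes of their subunits, Grik1 to Grik5, and the 2 genes of their auxiliary proteins, Neto1 and Neto2, in mouse hippocampus after a blocker of the kinase ATM. The 7 genes were taken by symbol from a table of 19558 genes, with the counts of their 33 transcripts summed per gene and also kept singly, out of 74764 transcripts in all. All 7 genes and 26 of the 33 transcripts passed the filter on low counts. The libraries were polyadenylated RNA from the hippocampus of WT mice of the strain C57BL/6 KP at postnatal day 40. In 1 group of 4 mice KU55933, a small-molecule blocker of ATM, had been given through the nose under anesthesia at a stated 7.5 mg/kg, and in the other group of 4 the vehicle, 4% DMSO in saline, had been given the same way. No source used here gives the time from dosing to collection. The title of the series concerns loss of ATM and glutamate transmission through kainate receptors and the chloride transporter KCC2.

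Kainate receptors are glutamate-gated cation channels of 4 subunits each. GluK1, GluK2 and GluK3 (Grik1, Grik2, Grik3) can form channels on their own, whereas GluK4 and GluK5 (Grik4, Grik5) bind glutamate and kainate with high affinity and need a partner among the other 3 to reach the surface. In the hippocampus these receptors are best known at the synapses from dentate mossy fibres to CA3 pyramidal neurons, where GluK2, GluK4 and GluK5 meet, and in interneurons, where GluK1 is prominent. Neto1 and Neto2 are single-pass membrane proteins that join the channel and alter its gating.

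The coded proteins fall into the same 2 classes. In a global alignment of the translated reference transcripts, GluK1, GluK2 and GluK3 were 72.9% to 79.4% identical, GluK4 and GluK5 were 70.6% identical, and the identities between the classes were 42.9% to 46.1%. The genes also differ in how they spell a shared protein stretch, which is shown because GC content, the share of G and C bases, moved with the results below. The 60 bases that follow code the pore-lining segment in each subunit gene, 5′ to 3′ on the coding strand, and the capitals mark 27 bases, 9 codons at the core of a longer run of residues that all 5 proteins share.
Grik1: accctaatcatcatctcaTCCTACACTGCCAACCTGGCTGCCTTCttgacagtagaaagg
Grik2: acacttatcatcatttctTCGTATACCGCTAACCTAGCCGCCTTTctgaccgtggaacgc
Grik3: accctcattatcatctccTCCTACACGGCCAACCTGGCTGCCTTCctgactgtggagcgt
Grik4: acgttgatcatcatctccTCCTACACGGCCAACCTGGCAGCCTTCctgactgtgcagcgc
Grik5: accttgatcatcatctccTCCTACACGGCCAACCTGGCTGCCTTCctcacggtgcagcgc
These stretches lie, in GRCm38, at chr16:87935994-87936053 (Grik1, minus strand), chr10:49240675-49240734 (Grik2, minus), chr4:125694024-125694083 (Grik3, plus), chr9:42543854-42543913 (Grik4, minus) and chr7:25015904-25015963 (Grik5, minus), each within 1 exon. GC content of the stretch was 48.3% in Grik1 and Grik2, 56.7% in Grik3, 58.3% in Grik4 and 60% in Grik5. Over the whole coding sequence of transcripts Grik2-202 and Grik5-201 the third base of the codon was G or C in 49.0% and 80.4% of codons.

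Library totals were 40586998 to 46630341 estimated counts in vehicle and 34190440 to 37499003 in KU55933, and a member had between 400 (Grik1, vehicle 4) and 11413 (Grik5, vehicle 4) counts in a library. Markers of dentate granule, CA3 and CA1 pyramidal neurons and interneurons were detected in every library, with no listed marker at 0 in all of them, and their summed levels overlapped between groups. Over all genes 6.92% rose and 14.6% fell. Of the 4 CA3 markers 0 rose and 1 fell (195 to 250 CPM summed in vehicle, 193 to 249 in KU55933). CPM are counts scaled to library size by TMM, per 1000000 counts. Of the 7 interneuron markers 0 rose and 3 fell (625 to 711 and 635 to 785 CPM). Of the 4 CA1 markers 0 rose and 1 fell, and of the 4 dentate granule markers 0 rose and 0 fell. Median log2 changes were 0.002 for CA3, 0.19 for interneuron, -0.23 for CA1 and -0.27 for dentate granule markers. Of the 4 markers of subcortical neurons 2 rose (39.8 to 51.1 and 49.1 to 77.0 CPM), and the 5 of choroid plexus epithelium summed to 1154 and 1231 CPM in KU55933 1 and 2 and to 49.8 to 110 CPM in the other 6 libraries. The labels' extraction text speaks of hypothalamus and PFC when it states the RNA input, against a hippocampus label on every sample. In bulk tissue fewer cells of a type and less RNA per cell cannot be told apart.

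Of the 5 subunit genes 2, Grik5 and Grik4, fell in KU55933, and 1 of the 2 auxiliary genes, Neto2, rose. The other 4 members did not pass the test. These 3 calls of 7 stand against 21.6% of 15481 genes called by the same edgeR quasi-likelihood test (Benjamini-Hochberg adjusted p under 0.05), 14.6% lower and 6.92% higher. All 3 calls ended when each library's trend of expression on GC content and transcript length was taken out as an offset in the same edgeR test, where 0 of 7 members passed (2 at an unadjusted p under 0.05) and 2% of all genes were called, 1.3% lower and 0.691% higher.

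Grik5, the gene of GluK5, lies on chromosome 7 (GRCm38, 25009849 to 25072346, minus strand). It had 218, 249.5, 262.5 and 283 CPM in vehicle 1 to 4 and 126, 112, 146 and 128 CPM in KU55933 1 to 4. The lowest vehicle library was above the highest KU55933 library, as KU55933 lay below vehicle without overlap in 15.9% of all genes. The vehicle mean of 253 ± 27.2 CPM was 1.98-fold the KU55933 mean of 128 ± 13.9 CPM (SD, n = 4 per group), a log2 change of -0.98 with a 95% interval of -1.21 to -0.76 (adjusted p = 0.000504, edgeR). It stayed called with any single library left out, with log2 changes of -1.05 to -0.93, and without KU55933 1 and 2, the libraries high in choroid plexus markers, with -0.88 (adjusted p = 0.00675, edgeR). Its transcripts average 62.1% GC, in the decile of all genes richest in GC (58.0% to 71.3%), where the median log2 change was -0.66 and 74.1% of genes were called lower. With the GC and length offset the 8 libraries held 176, 206, 165 and 186 CPM in vehicle and 185, 175, 179.5 and 165 CPM in KU55933, which overlap throughout. The offset log2 change was -0.06 with an interval of -0.22 to 0.11 (adjusted p = 0.755, edgeR), and it turned to 0.01 without vehicle 2.

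Grik4, the gene of GluK4, lies on chromosome 9 (GRCm38, 42518135 to 42944493, minus strand). It had 69.9, 89.15, 83.2 and 97.8 CPM in vehicle 1 to 4 and 66.15, 59.9, 66.2 and 60.5 CPM in KU55933 1 to 4. The groups did not overlap, though vehicle 1 lay close above the highest KU55933 library. The fall was 1.35-fold, with means of 85.0 ± 11.7 CPM in vehicle and 63.2 ± 3.47 CPM in KU55933 (SD, n = 4 per group), a log2 change of -0.43 with an interval of -0.65 to -0.21 (adjusted p = 0.0138, edgeR). With KU55933 1 and 2 left out together the log2 change was -0.42 and the call ended (adjusted p = 0.0972, edgeR). Its GC content was 54.1%, close to the 54.2% of Grik3, and in the decile of genes that holds both (54.0% to 55.8%) the median log2 change was -0.19 and 17.8% of genes were called lower. With the offset the log2 change was -0.30, with an interval of -0.52 to -0.08 that leaves out 0 and an unadjusted p of 0.0116, but an adjusted p of 0.167 (edgeR). Of the added fits with the offset, only that without vehicle 1 called Grik4, in the same direction (adjusted p = 0.0295, edgeR). It called 747 of all genes, against 309 with no library left out. The other added fits gave Grik4 an adjusted p of 0.168 to 0.414 (edgeR). Of the 4 markers of CA3 neurons, in which GluK4 is prominent, 1 fell, and their sum overlapped between groups as given above. Whether the number of CA3 neurons had a part in the fall of Grik4 was not tested.

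**Figure D1:**
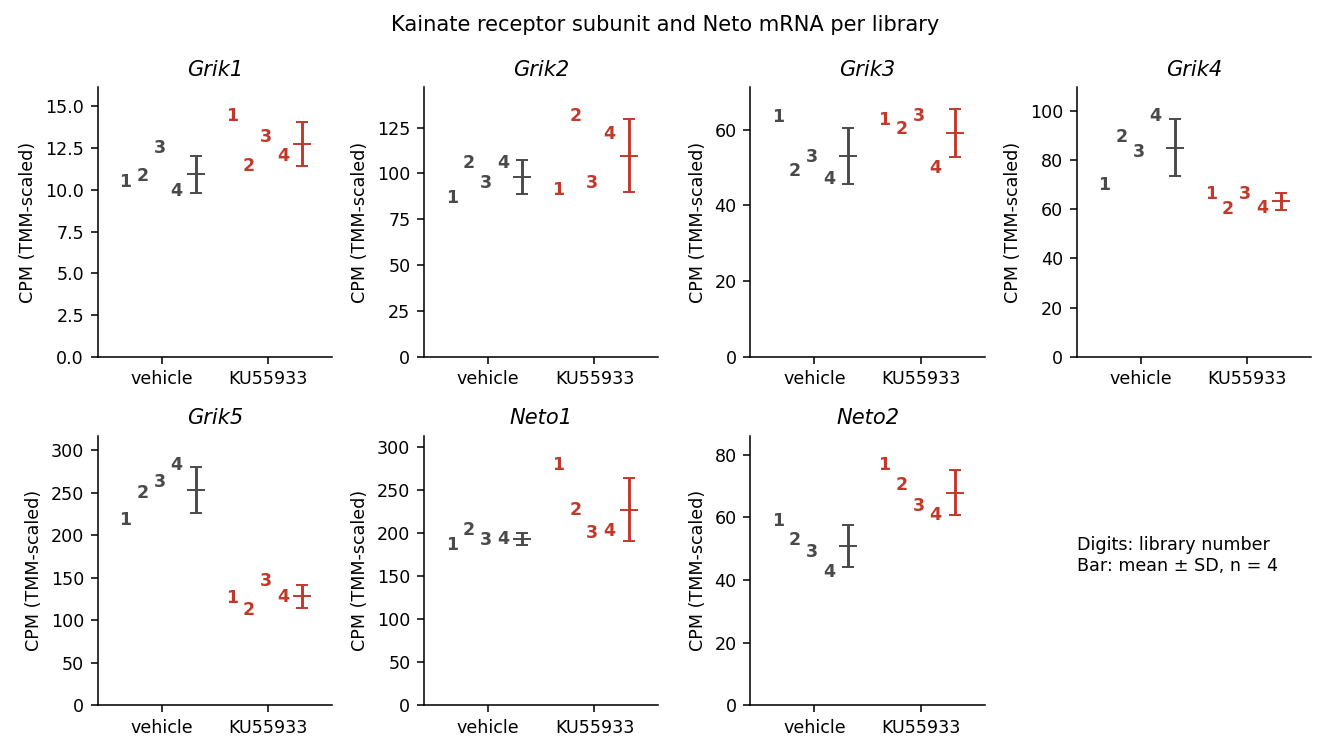
Normalised counts (CPM, y axis from 0) of the 7 genes in vehicle and KU55933; each digit is the library of that number and the bar the mean ± SD of 4 libraries. The 4 KU55933 libraries of Grik5 (112 to 146 CPM) and Grik4 (59.9 to 66.2) sit below all vehicle libraries and those of Neto2 (60.6 to 76.8) above, while the other 4 genes overlap.

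The genes of the subunits that form channels on their own did not pass the test. Grik1, best known in interneurons among hippocampal cells, had 10.5, 10.8, 12.5 and 9.92 CPM in vehicle and 14.4, 11.4, 13.2 and 12.04 CPM in KU55933. The ranges overlap, and the log2 change of 0.22 had an interval of -0.02 to 0.47 (adjusted p = 0.159, edgeR). Grik2, per unit of length the most abundant of the 3, had 86.8, 106, 94.5 and 105.5 CPM in vehicle and 91.0, 131, 94.99 and 122 CPM in KU55933. Only KU55933 2 and 4 lay above all vehicle libraries, and the log2 change of 0.16 had an interval of -0.11 to 0.43 (adjusted p = 0.368). Without KU55933 2 it was 0.06, and with the offset its sign turned, to -0.07 with an interval of -0.36 to 0.22. Grik3 had 63.4, 49.2, 52.9 and 46.9 CPM in vehicle and 62.7, 60.2, 63.6 and 50 CPM in KU55933. Vehicle 1 stood among the high KU55933 libraries and KU55933 4 among the low vehicle ones, with a log2 change of 0.15 and an interval of -0.09 to 0.40 (adjusted p = 0.324, edgeR). For Grik3 the offset raised the log2 change to 0.28, with an interval of 0.06 to 0.50 (adjusted p = 0.21, edgeR). Of the added edgeR fits with the offset 2 called it higher, without vehicle 1 and with the replicate number as a block. These called 747 and 823 of all genes, against 309 with the offset alone. In the other added fits the adjusted p of Grik3 was 0.113 to 0.59 (edgeR).

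Of the auxiliary genes, Neto2 passed and Neto1 did not. Neto2, on chromosome 8 (GRCm38, 85636588 to 85700924, minus strand), had 58.9, 52.9, 48.9 and 42.6 CPM in vehicle and 76.8, 70.2, 63.8 and 60.6 CPM in KU55933. All KU55933 libraries were above all vehicle libraries, as in 10.7% of all genes, but KU55933 4 lay close above vehicle 1. The rise was 1.33-fold, with means of 50.9 ± 6.86 CPM in vehicle and 67.8 ± 7.18 CPM in KU55933 (SD, n = 4 per group), a log2 change of 0.42 with an interval of 0.18 to 0.65 (adjusted p = 0.0225, edgeR). The call ended without vehicle 3 or 4 or KU55933 1 or 2 (adjusted p of 0.056 to 0.0716), and the log2 change was 0.29 without KU55933 1 and 2 together. At 37.3% GC, Neto2 belongs to the decile of genes poorest in GC (31.9% to 41.9%), where the median log2 change was 0.24 and 26.3% of genes were called higher. The offset log2 change was 0.20, with an interval of -0.01 to 0.40 (adjusted p = 0.339, edgeR). Neto1, which is also known for its place in NMDA receptor complexes, had 186, 203, 191 and 193 CPM in vehicle and 279, 227, 200 and 202 CPM in KU55933. KU55933 1 stood highest and KU55933 3 and 4 lay within the vehicle range. The log2 change of 0.23 (interval 0.0042 to 0.46, adjusted p = 0.126, edgeR) was 0.12 without KU55933 1. The offset log2 change of Neto1 was -0.000696, with an interval of -0.23 to 0.23.

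Per unit of length, Grik5 had the highest mean of the members in both groups. Levels were set between genes as TPM, counts divided by transcript length and scaled to the same sum in every library. The GC and length offset was not applied to TPM. In vehicle the order was Grik5 at 171 ± 19.96 TPM, Neto1 at 62.5 ± 2.36, Grik4 at 50.4 ± 6.84, Grik2 at 45.4 ± 3.39, Neto2 at 24.1 ± 3.47, Grik3 at 14.2 ± 2.02 and Grik1 at 8.12 ± 0.978 TPM (SD, n = 4). Only the ranges of Grik4 and Grik2 overlapped between neighbours in that order. In KU55933 Grik2 stood above Grik4, at 52.3 ± 10.1 against 36.75 ± 1.48 TPM without overlap. Grik5 was at 97.2 ± 6.83 TPM and overlapped with Neto1 at 75.5 ± 10.6, which stood above it in KU55933 1 (89.85 against 89.04 TPM). Neto2 at 32.3 ± 3.65 TPM overlapped with Grik4, and Grik3 and Grik1 were at 16.1 ± 1.88 and 9.34 ± 0.639 TPM. On this scale, which takes no TMM factor, the groups overlapped for Neto2 (20.1 to 28.5 TPM in vehicle, 27.9 to 35.6 in KU55933) and stood apart for Neto1 (59.2 to 64.5 and 67.5 to 89.85 TPM), unlike in CPM.

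The make-up of the subunit mRNA pool differed between groups before the GC and length trend was taken out. Grik4 and Grik5 together made 73.8%, 75.8%, 77.6% and 78.7% of the summed length-scaled abundance of Grik1 to Grik5 in vehicle 1 to 4 and 64.8%, 59.5%, 66.2% and 62.9% in KU55933 1 to 4. The groups did not overlap, and the difference of -13.1 percentage points had an exact two-sided permutation p of 0.0286, the smallest that the 70 arrangements allow. This share draws on the same counts as the calls of Grik5 and Grik4 above, so the test adds no separate support for them. Grik5 alone took 59.1% ± 1.77 in vehicle and 45.9% ± 1.91 in KU55933, Grik2 15.7% ± 1.21 and 24.6% ± 3.67 (SD, n = 4 per group). Grik4 held nearly the same share, 17.35% ± 0.938 and 17.4% ± 1.34. With counts divided by the GC and length trend before the share was taken, Grik4 and Grik5 made 70.65% ± 0.801 in vehicle and 70.04% ± 1.75 in KU55933, a difference of -0.61 points (exact permutation p = 0.571). Neto2 made 32.5%, 27.2%, 27.4% and 23.9% of the Neto pool in vehicle and 28.4%, 31.2%, 31.3% and 29.3% in KU55933. Vehicle 1 was the highest of the 8, and the difference of 2.275 points was within the spread (exact permutation p = 0.314), as it was with the offset (2.36 points, p = 0.229 by the exact permutation test).

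**Figure D2:**
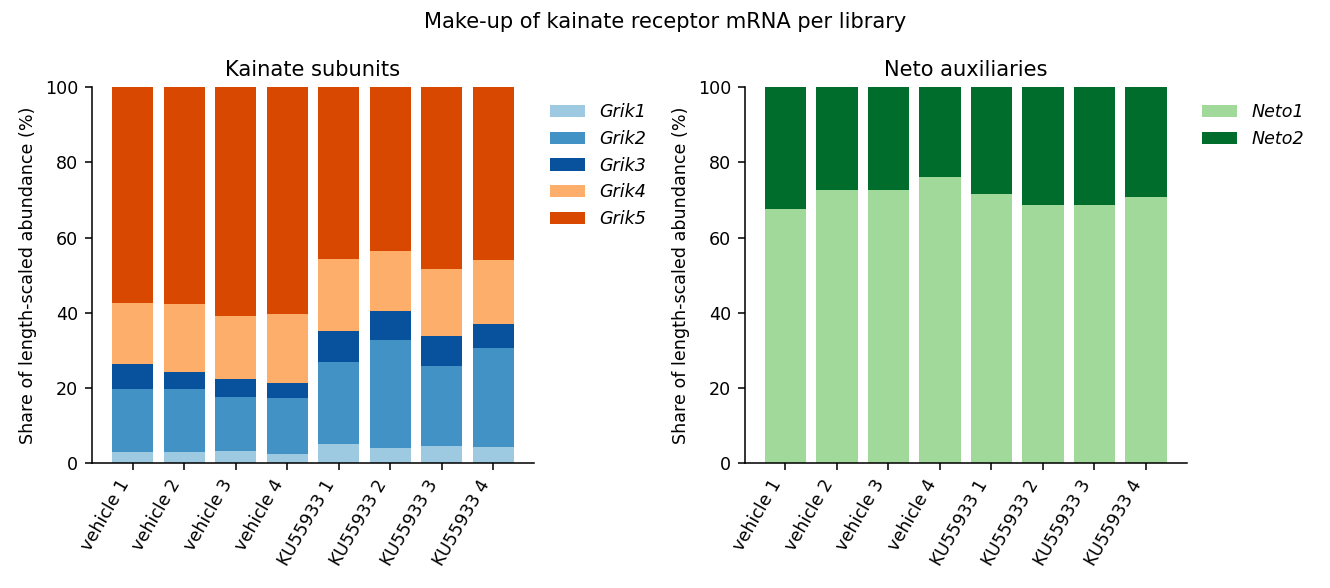
Stacked bars give, for each library, the share (%) of each subunit gene in the length-scaled abundance of Grik1 to Grik5 (left) and of each Neto gene in that of both (right). The Grik5 segment takes 57.3% to 60.9% of the bar in vehicle and 43.7% to 48.4% in KU55933, while the Neto2 segments of the 2 groups overlap.

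The order of the members' changes followed GC content in part. The slope of log2 expression on GC content in log2 units per 10 percentage points, taken over all genes against their mean, was 0.13, 0.19, 0.27 and 0.26 in vehicle 1 to 4 and -0.28, -0.34, -0.11 and -0.12 in KU55933 1 to 4. Every vehicle slope was above every KU55933 slope. The slopes are relative to the mean over all libraries, so their signs give a difference between groups and no direction within either group. The 3 GC-poor members Neto2, Neto1 and Grik2 (37.3% to 39.6%) had log2 changes of 0.16 to 0.42, in a decile with a median of 0.24. Grik1 at 47.4% GC had 0.22 in a decile with a median of 0.12. Grik3 and Grik4, alike in GC content, had changes of opposite sign, 0.15 and -0.43, a difference that was not itself tested. Whether the GC trend arose in the preparation of the libraries or in the tissue was not tested.

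**Figure D3:**
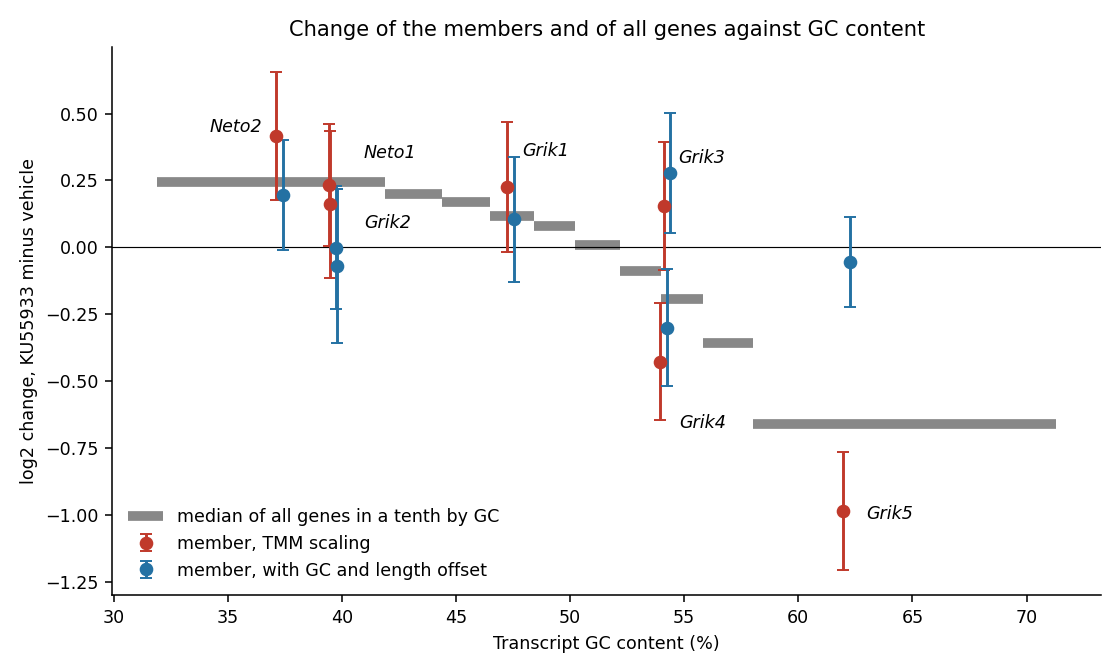
Log2 change (KU55933 minus vehicle, y axis) against transcript GC content (%, x axis); grey bars are the median of all genes in each decile by GC, red points the members with TMM scaling, blue points the members with the GC and length offset, and whiskers the 95% interval of the change. Grik5 moves from -0.98 to -0.06 with the offset, Grik4 from -0.43 to -0.30 and Grik3 from 0.15 to 0.28.

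At the level of single transcripts, 3 of the 26 tested fell and 0 rose (edgeR, against 6.76% of 45343 transcripts called, 5.7% lower and 1.06% higher). At an unadjusted p under 0.05 there were 4 lower and 5 higher, and DESeq2 called the same 3 lower and 2 higher, Grik1-202 and Neto2-201. Of the 3 that fell 2 were of Grik5 and 1 of Grik4. Grik5-201, the 3763-base coding transcript with 85.6% of the gene's counts, had 197, 232, 227 and 235 CPM in vehicle and 110, 85.3, 122.5 and 102 CPM in KU55933, a log2 change of -1.09 ± 0.12 (SE, adjusted p = 0.00319, edgeR). Grik5-207, which the annotation marks for nonsense-mediated decay, the breakdown of mRNAs with an early stop codon, had 8.03, 7.01, 13.85 and 14.03 CPM in vehicle and 3.01, 3.35, 3.53 and 2.10 CPM in KU55933 (log2 change -1.84 ± 0.29, adjusted p = 0.00942, edgeR), a call that ended without KU55933 1 and 2 together. Both sat below every vehicle library in KU55933, and in Grik5-207 vehicle 3 and 4 were well above vehicle 1 and 2. The share of all transcripts that stand apart in this way was not counted. For genes it was 15.9%. The other decay transcript, Grik5-202, had 20.1, 13.9, 18.05 and 23.25 CPM in vehicle and 10.2, 13.7, 16.2 and 13.25 CPM in KU55933, which overlap, with a log2 change of -0.50 ± 0.19 (adjusted p = 0.192). When the offset was fitted per transcript, 0 member transcripts fell in edgeR, and at an unadjusted p under 0.05 there were 0 lower and 6 higher (2.06% of all transcripts were called). The log2 change of Grik5-201 was then 0.30 (adjusted p = 0.319, edgeR), against -0.06 for the whole gene with the gene-level offset, and Grik5-202 was called higher at 0.88 (adjusted p = 0.0496, edgeR).

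Grik5-206, an 880-base retained-intron transcript of 54.7% GC, was the only member transcript of 25 tested whose change differed from that of the rest of its gene (edgeR's diffSpliceDGE, 3.39% of 40078 transcripts called). It had 33, 76, 68 and 101 counts in vehicle and 101, 161, 77 and 123 in KU55933, from 0.65% ± 0.236 to 2.63% ± 1.1 of the gene's counts (SD, n = 4 per group). Relative to the gene its log2 change was 1.93 (adjusted p = 0.0317, diffSpliceDGE), while its own change of 0.92 did not pass (adjusted p = 0.231, edgeR). The main transcript is at 62.3% GC, and with counts divided by the GC and length trend the relative change was 0.88 and was not called (adjusted p = 0.981, diffSpliceDGE). No member transcript was then called, 1 had an unadjusted p under 0.05, and 2.76% of all transcripts were called. The call with TMM scaling also ended without vehicle 1, 2, 3 or 4 or KU55933 2 or 4.

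Grik4 has 2 coding transcripts with the same 2868-base coding length. Grik4-201 (3413 bases, 55.4% GC) had 46.2, 55.8, 51.6 and 61.9 CPM in vehicle and 36.5, 29.4, 37.9 and 36.1 CPM in KU55933, a fall of 0.62 ± 0.12 (SE) on the log2 scale (adjusted p = 0.0186, edgeR). Grik4-202 (5887 bases, 52.2% GC), whose stretch after the stop codon is 2697 bases against 420, had 26.6, 36.1, 32.0 and 33.9 CPM in vehicle and 30.2, 29.9, 28.5 and 22.5 CPM in KU55933, which overlap (log2 change -0.21 ± 0.13, adjusted p = 0.438). The difference between both in change did not pass the usage test (adjusted p = 1 for each, diffSpliceDGE). The share of Grik4-201 in the gene averaged 62.6% ± 1.74 over the vehicle libraries and 55.8% ± 5.01 over those of KU55933 (SD, n = 4 per group). The fall of Grik4-201 ended when vehicle 3, vehicle 4, KU55933 1 or KU55933 2 was left out, when KU55933 1 and 2 were left out together, and in edgeR with RLE in place of TMM scaling, while DESeq2 called it.

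Grik1 counts lay mostly on 3 coding transcripts. Grik1-201 had 176, 0, 159 and 89 estimated counts in vehicle and was listed at 0 in all 4 KU55933 libraries, and it missed the filter, so it was not tested with all 8 libraries. Vehicle 2, at 0 like the KU55933 libraries, kept the groups from standing apart. Grik1-202 had 1.99, 4.16, 3.13 and 2.01 CPM in vehicle and 6.81, 4.54, 5.55 and 4.10 CPM in KU55933, a log2 change of 0.90 ± 0.30 (SE, adjusted p = 0.129, edgeR), with vehicle 2 inside the KU55933 range. Grik1-211, the most abundant at 47% of the gene's counts, had a log2 change of 0.38 ± 0.16 (adjusted p = 0.217). In 5 of the fits that left a library out Grik1-201 entered the test and its usage was called, and without vehicle 2 the transcript was also called lower in edgeR. Whether counts moved between these transcripts in the estimation was not tested, since the assignment error of the estimates is not used here.

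Grik2 was carried by 3 transcripts of at least 10% of its counts, none of which passed. Grik2-203, a retained-intron transcript, took 19.4, 32.1, 27.4 and 29.6 CPM in vehicle and 8.55, 34.65, 23.0 and 38.1 CPM in KU55933, so KU55933 1 was the lowest of the 8 and KU55933 4 the highest. The coding transcripts Grik2-207 and Grik2-202 had log2 changes of 0.06 ± 0.17 and 0.43 ± 0.17 (SE, adjusted p = 0.902 and 0.188, edgeR). Grik3 had the single transcript Grik3-201, Neto1-201 held 99.1% of Neto1, and Neto2-201 held 80.9% of Neto2. Neto2-201 had 45.5, 46.0, 39.7 and 36.45 CPM in vehicle and 61.2, 56.65, 47.9 and 52.3 CPM in KU55933. It did not pass (log2 change 0.38 ± 0.11, adjusted p = 0.0872, edgeR).

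**Figure D4:**
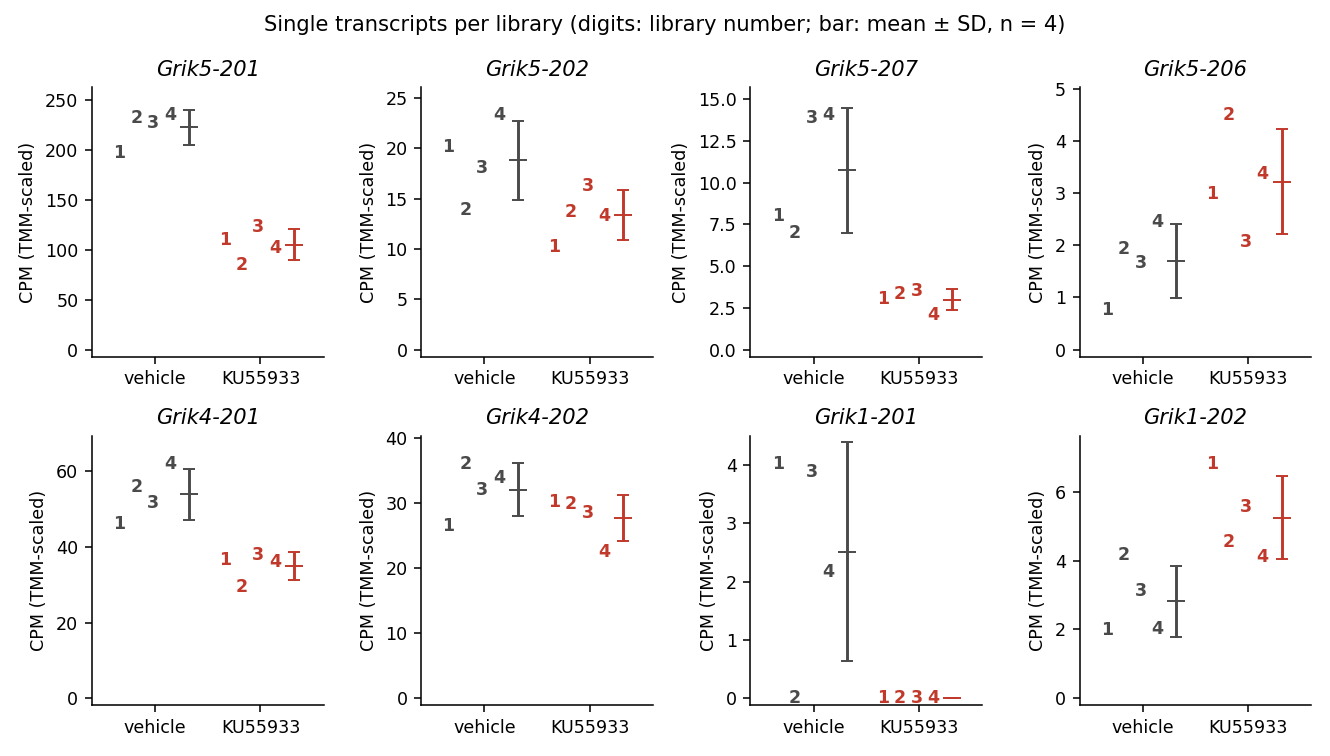
CPM (y axis) of 8 single transcripts of Grik5, Grik4 and Grik1; each digit is the library of that number and the bar the mean ± SD of 4 libraries. Grik5-201, Grik5-207 and Grik4-201 in KU55933 sit below every vehicle library, Grik5-206 overlaps between the groups, and Grik1-201 is at 0 in 5 of 8 libraries.

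Genes of proteins known to bind, carry, modify or degrade kainate receptors moved both ways. Of 31 genes, all tested, 5 rose, 6 fell and 20 did not pass, where 6.92% of all genes rose and 14.6% fell, with a median log2 change of 0.05 against 0.01 over all genes. Among 6 scaffold genes Dlg4, the gene of PSD-95, fell (860 ± 22.8 to 655 ± 58.6 CPM, SD, n = 4 per group, log2 change -0.39, adjusted p = 0.00611, edgeR), and Dlg1, the gene of the related SAP97, rose (log2 change 0.30, adjusted p = 0.0232). Among 6 trafficking genes Kif17, a kinesin that carries kainate receptors along dendrites, fell (-0.49, adjusted p = 0.0132), while Copb1, of the COPI coat that returns GluK5 to the endoplasmic reticulum, rose (0.28, adjusted p = 0.0249). Rab11a, a GTPase of recycling endosomes, rose as well (0.27, adjusted p = 0.0486).

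Among 8 genes of receptor turnover and modification Klhl24, which encodes the GluK2 partner KRIP6, rose (0.29, adjusted p = 0.0308, edgeR). Klhl17, the gene of actinfilin, which targets GluK2 for degradation, and the ligase gene Pias3 fell (-0.66 and -0.29, adjusted p = 0.04 and 0.0302). Among 6 genes of editing and signalling the tyrosine kinase gene Src fell (-0.40, adjusted p = 0.00915), and Adarb1, the enzyme that edits the pore site of GluK1 and GluK2 mRNA, did not pass (0.42, interval -0.22 to 1.07, adjusted p = 0.31), with vehicle 3 and 4 low at 111 and 81.5 CPM and the other 6 libraries at 199 to 223. Adarb1, Rab11a, Klhl17 and Pias3 are named after their values were seen. Of 5 extracellular and adhesion genes C1ql2, a protein of mossy fibre terminals that gathers kainate receptors at those synapses, fell from 80.6 ± 22.6 CPM in vehicle to 27.2 ± 2.46 CPM in KU55933 (SD of 4 libraries each), a 2.96-fold difference (adjusted p = 0.000669, edgeR). Its GC content is 63.35%, and its offset log2 change was -0.43, with an interval that leaves out 0 and an adjusted p of 0.222. With the offset 0 of the 31 passed in edgeR, and 3 had an unadjusted p under 0.05. Of the other named falls, the offset log2 change was 0.003 for Dlg4, 0.02 for Kif17, 0.17 for Src, -0.23 for Klhl17 and -0.10 for Pias3. For Src the sign turned, with an interval of 0.003 to 0.34 (adjusted p = 0.308, edgeR). The named rises had offset log2 changes of 0.13 for Dlg1, 0.09 for Copb1, 0.08 for Rab11a and 0.06 for Klhl24. Without the offset, the number of partners called dropped from 11 to between 4 and 7 without vehicle 2, 3 or 4 or KU55933 2 or 3. Over all genes it dropped from 3338 to between 1597 and 2539 in the same fits.

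**Figure D5:**
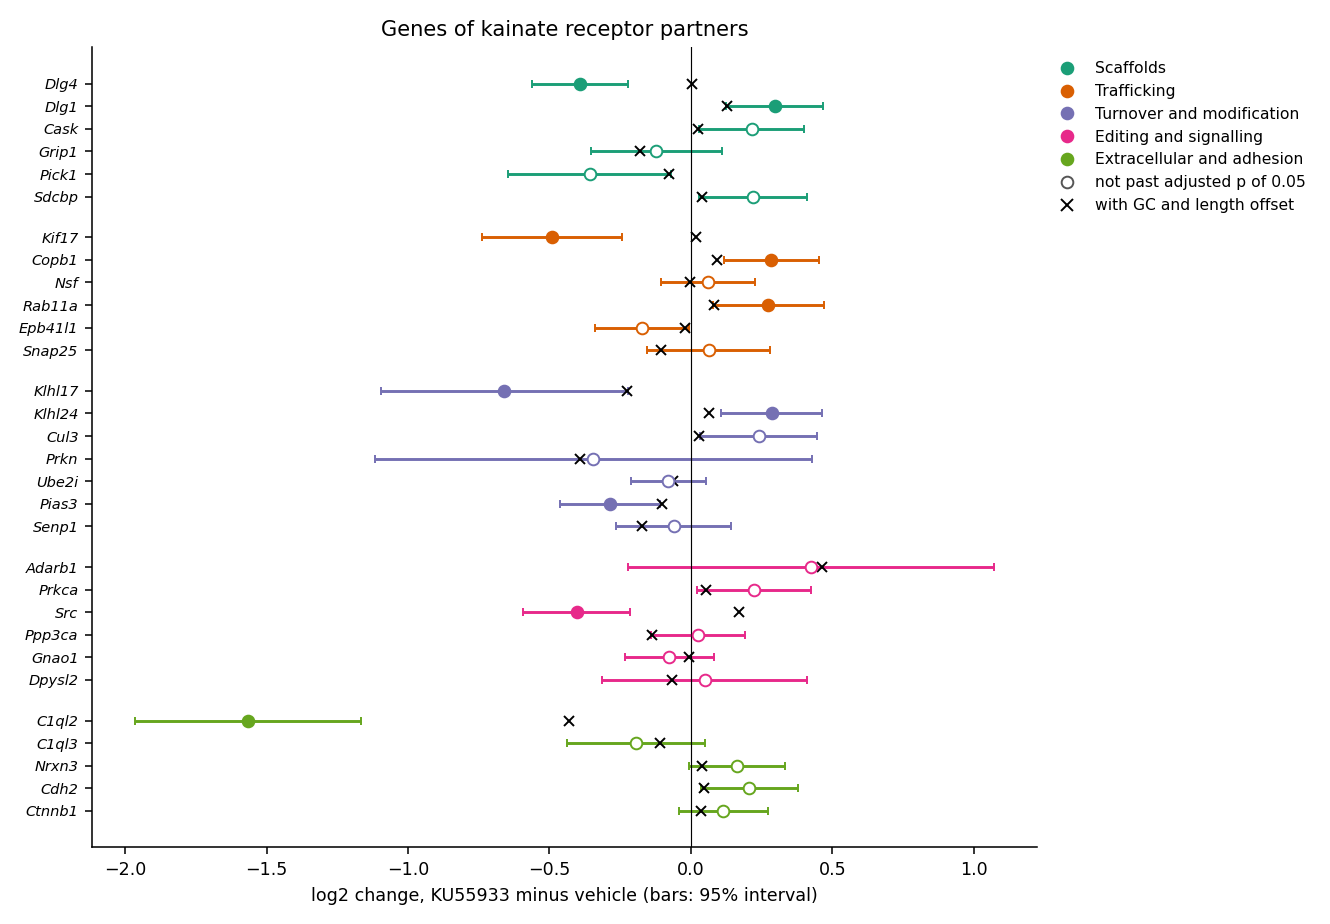
Log2 change (KU55933 minus vehicle, x axis) of partner genes, coloured by role, with 95% intervals; filled circles passed an adjusted p of 0.05, open circles did not, and crosses are the values with the GC and length offset. C1ql2 stands apart at -1.57, and its cross lies at -0.43.

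In the most like families, the pore-forming AMPA and NMDA receptor subunits and the delta receptors, 1 of 12 tested genes rose and 3 fell. Their median log2 change was 0.15. Of the 7 kainate receptor genes 1 rose and 2 fell, with a median of 0.16. Over all genes 6.92% rose and 14.6% fell. Grin1 fell (-0.60, adjusted p = 0.00149, edgeR) and Grin2c fell (-0.69, adjusted p = 0.00655), at 59.1% and 61.3% GC, and Gria4 rose (0.33, adjusted p = 0.0195), at 43.8% GC. Grin2d, the third that fell (-0.68, adjusted p = 0.0139), at 65.1% GC, was called higher with the offset (0.69, adjusted p = 0.0413, edgeR). It was the only call of the 12 there, where 0.691% of all genes were called higher, and is named after its values were seen. Grin1, Grin2c and Grin2d lie in the decile richest in GC (58.0% to 71.3%), where 74.1% of all genes were called lower without the offset.

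The tested gene whose profile over the 8 libraries came closest to each member was sought by the root mean square difference of centred log2 CPM, leaving out provisional symbols. For Grik5 it was Zfp628 (0.06 log2 units), for Grik4 Bloc1s5 (0.06), for Neto2 Pak3 (0.05) and for Neto1 Nrip3 (0.04). For Grik1, Grik2 and Grik3 the nearest were Nuf2, Rbm6 and Lama4 (0.05, 0.05 and 0.03).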

How the data were processed

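The authors deposited 1 table of whole-number estimated counts (expected counts), 1 row per transcript, with Ensembl IDs and gene symbols. Per the submitters' processing notes they used FastQC 0.11.9, Salmon 1.4.0, DESeq2 1.32.0 and GRCm39. How the counts were rounded or filtered is not given in the sources used here. Samples were grouped by their treatment labels. Transcripts were summed per gene, and both tables were tested over all 8 libraries with edgeR 4.0.16 (filterByExpr, TMM, robust quasi-likelihood, two-sided, Benjamini-Hochberg over all features, R 4.3.3) and diffSpliceDGE. The test was tried on simulated counts that held no GC trend between libraries. That trial does not bear on calls under such a trend.

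The fewest counts of a member in a library were 400 (Grik1), and the SE of the log2 change was largest for Grik2 (0.124). Intervals are 95%. GC content, lengths, coordinates and sequences came from GENCODE M21 (GRCm38), which held 99.7% of the transcripts, so coordinates are not of the authors' build. The offset is each library's spline of centred log2 CPM on GC content (6 df) and log2 length (5 df). The usage test with it ran on counts divided by that trend.

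Named were all members, their transcripts with at least 10% of the gene or called, up to 4 called partners and 2 called AMPA or NMDA genes in each direction by p, and the nearest gene by profile. Members and lists were chosen with earlier results of these data known. Alternatives were RLE and upper-quartile scaling, other filters, limma-voom 3.58.1, DESeq2 1.42.0, the offsets, a replicate block and each library left out. Of the partners counted, 1 is not reported here by name.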

Additional observations from a re-analysis of the deposited data

How the results depend on the processing

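The 3 member genes called stayed 3 under RLE and upper-quartile scaling, other filters, a non-robust fit, DESeq2, limma-voom and the replicate block. Over all genes these fits called 2863 to 4444, against 3338. The block gave 3 genes and 1 transcript (Grik5-201, with the calls of Grik5-207 and Grik4-201 ended). With it the share difference for Grik4 and Grik5 was -13.101 points (exact permutation p = 0.125, 16 arrangements). That p is the smallest two-sided value that the 16 arrangements allow, and every same-numbered difference was negative. The test with the block therefore cannot decide whether the share difference holds. The replicate numbers are not taken to pair samples in the main test. Same-numbered deviations correlated at 0.294, 0.084, 0.0393 and 0.202, and differently numbered ones at -0.221 to 0.115. Whether libraries of the same number share a batch was not tested. With 1 library left out, 2 to 3 member genes, 4 to 15 partner genes, 2 to 4 transcripts and 0 to 2 usage calls were called, against 3, 11, 3 and 1. Over all genes 1597 to 4348 were called, against 3338. The matching numbers for all transcripts are not given here. The share difference was -14.037 to -11.822 points. Without KU55933 1 and 2 the calls were 1, 3 and 1 for member genes, partners and transcripts (Grik5-201), and 1090 over all genes. DESeq2 called 5 transcripts.

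With an offset for GC alone, or GC and length, 0 member and 0 partner genes were called, and over all genes 228 and 309. The second gave 1 transcript, 0 usage changes and a share difference of -0.612 points (exact permutation p = 0.571). Grik2 was then at -0.05473 and -0.07027 (log2) and Neto1 at -0.0006962 with the second, reversing their signs. Fits added after the data were seen joined that offset with other choices. With the block, 1 member (Grik3), 1 partner and 823 of all genes were called, Grik2 was at -0.07515 and Neto1 at -0.009588. Without KU55933 1 and 2, 0 members, 0 partners and 34 of all genes were called, with Grik2 at -0.02441 and Neto1 at -0.1102. With 1 library left out, 0 to 2 members, 0 to 0 partners and 78 to 747 of all genes were called, and Grik5 was at -0.1005 to 0.008822. Grik2 was at -0.1491, -0.01579, -0.09115 and -0.01988 without vehicle 1, 2, 3 or 4 and at 0.01355, -0.1249, -0.02344 and -0.1506 without KU55933 1, 2, 3 or 4. Neto1 was at -0.04708 and -0.00756 without vehicle 1 or 3, at -0.115 without KU55933 1 and up to 0.04382 otherwise. The cause of these shifts was not tested.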
